A study of Mus musculus with 9 samples.

Results

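Regions of the mouse genome in which the nuclear protein DPPA4 was found reproducibly in E14 embryonic stem cells, and in neither P19 embryonal carcinoma cells nor 3T3 fibroblasts, numbered 10040 of 45616 regions (22.0%). They were chosen from the deposited peak lists of 6 chromatin immunoprecipitation libraries (ChIP-seq), 2 per line. A reproducible region of a line is the union of peaks that overlap, by 1 bp or more, between the 2 lists of that line. Overlapping reproducible regions of the 3 lines were then joined, and joined regions holding an E14 region only are called regions of E14 alone. Regions with an E14 region, alone or shared, numbered 36889, of which regions of E14 alone made up 27.2%. The others were held with P19 (18315), with 3T3 (1492) or by all 3 lines (7042). Peak presence in all 6 libraries chose the members, so presence, score and width are given as descriptions with no test.

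E14 is a mouse embryonic stem cell line, grown here without feeders on gelatin in 2i medium with serum. P19 is an embryonal carcinoma line and 3T3 a fibroblast line, both grown in DMEM with serum, and the 3T3 cells expressed Dppa4 ectopically. All immunoprecipitations used the same DPPA4 antibody. The sources used here do not say which promoter drove the ectopic Dppa4, how many clones were used or where the replicates came from, so the spread between the libraries of a line may be technical.

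Dppa4 encodes a DNA- and chromatin-binding protein of pluripotent cells and the early embryo, and it carries a SAP domain, a fold found in many DNA-binding nuclear proteins. It acts together with its relative Dppa2. The pair is known for binding CpG-rich promoters, among them developmental promoters that carry both activating and repressive histone marks, and for helping to switch on genes of the early embryo. A peak list records where the immunoprecipitated DNA exceeded the caller's threshold and not how much protein was bound.

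The 6 lists held between 15462 and 61693 peaks, the longest being E14 replicate 1 and the shortest 3T3 replicate 1. Replicate 2 of E14 held 43443 peaks, and the P19 lists held 40011 and 51196. Read depth is unknown, so a missing peak cannot be told apart from a site below detection. Each peak has a score from the authors' peak caller, which starts at 50 in every list and is tied at 3100 for many of the strongest peaks. Scores were turned into percentile ranks within a list, with 100 for the strongest peak.

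The name of the set holds for reproducible regions and not for single peaks. Of the regions of E14 alone, 4604 (45.9%, Wilson 95% interval 44.9 to 46.8) had no peak in any P19 or 3T3 library, and the other 5436 (54.1%) had at least 1. Over all regions with an E14 region, the share without any such peak was 12.5%, and by the construction of the sets all of these are regions of E14 alone. Most of the overlapping peaks came from P19. A P19 peak without a 3T3 peak lay in 4745 members (47.3%), a 3T3 peak without a P19 peak in 271 (2.70%) and peaks of both lines in 420 (4.18%). In 64 members both P19 libraries had peaks that did not meet, and in 4 members both 3T3 libraries did. The share without another peak became 94.2% without P19 replicate 1 and 93.2% without P19 replicate 2, since the remaining P19 list then decided membership.

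P19 replicate 2 accounted for most of these single-library peaks. It had a peak in 4335 members (43.2%, interval 42.2 to 44.1), against 83.1% of all regions with an E14 region. P19 replicate 1, the shorter P19 list, had a peak in 894 members (8.90%, 8.36 to 9.48), against 71.8% of all regions with an E14 region. 3T3 replicate 2 had a peak in 591 members (5.89%) and 3T3 replicate 1 in 104 (1.04%), against 32.4% and 25.4%. The rule itself lowers all 4 shares, and they are read here only against each other. The number of members follows the same lists. It was 5708 without P19 replicate 1 and 28070 without E14 replicate 2, and between 9180 and 14267 when any other library was left out.

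The peaks of other lines inside these regions mostly ranked in the lower part of their own lists. In P19 replicate 2 their scores ran from 50.05 to 600.2 with a median of 84.9, a median percentile of 30.9. Peaks of the same library in regions held by E14 and P19 had a median percentile of 73.0. In P19 replicate 1 the scores ran from 50 to 190.9 with a median of 64.6, a median percentile of 18.8 against 65.2 in regions of E14 and P19. In 3T3 replicate 2 the scores ran from 50.04 to 512.3 with a median of 91.8, a median percentile of 31.5 against 67.0 in regions of E14 and 3T3. In 3T3 replicate 1 they ran from 50.3 to 119.5 with a median of 56.9, a median percentile of 14.3 against 58.9. These comparisons set peaks without a match in the other library of the line against peaks with one. Against regions where the line was not reproducible either, the order of the medians differed by library. 3T3 replicate 2 had a median percentile of 23.4 in regions of E14 and P19, below its 31.5 in members, and P19 replicate 1 had 21.3 in regions of E14 and 3T3, near its 18.8. For 3T3 replicate 1 and P19 replicate 2 these values were 21.4 and 39.4, above those in members. The highest-ranked of these peaks was in 3T3 replicate 2, at percentile 84.2, at chr9:61220155-61221380. Scores in that region were 102.7 and 146.0 for E14, 58.3 for P19 replicate 2 and 512.3 for 3T3 replicate 2. After it came chr12:71446548-71448578 and chr3:141127644-141128803, with scores of 600.2 and 587.9 in P19 replicate 2 and no peak in P19 replicate 1.

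In E14 itself members scored lower than regions shared with P19. Scores in E14 replicate 1 ran from 50.01 to 3100 with a median of 115.8, and in E14 replicate 2 from 50.02 to 3100 with a median of 81.5. The median of regions of E14 and P19 was 322.1 in replicate 1 and 204.1 in replicate 2. Regions of E14 and 3T3 were closer to the members, with medians of 130.8 and 117.8. Above percentile 50 ranked 46.5% of the members in replicate 1 and 19.99% in replicate 2. In both lists at once this held for 1671 members (16.6%), against 31.8% of regions of E14 and 3T3, 66.5% of regions of E14 and P19 and 81.1% of regions held by all lines. Members without any peak of another line scored lower than those with one. Their medians were 99.3 and 73.3 in the E14 libraries, against 135.1 and 90.2. Each member typically held a single peak per library, with 1 peak in 93.8% of members in replicate 1 and in 99.8% in replicate 2. The 2 E14 libraries ordered the members alike only in part, with a Spearman rank correlation of 0.51 over 10040 regions. It was 0.85 over regions of E14 and P19 and 0.50 over regions of E14 and 3T3. These are correlations across regions, which share their library and are not replicates, and members span fewer high ranks.

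**Figure D1:**
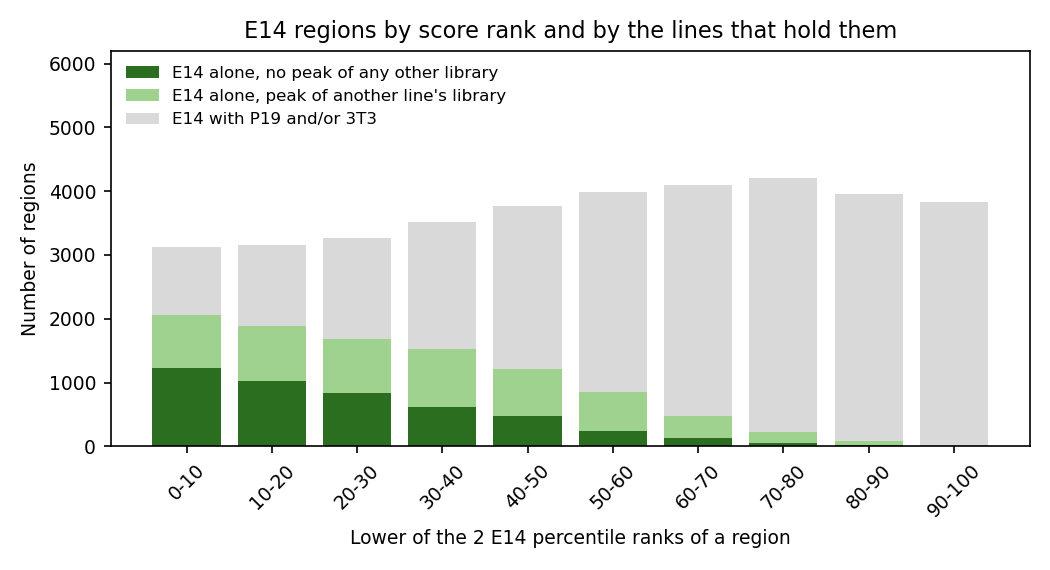
Number of regions with an E14 region by the lower of their 2 E14 percentile ranks, split into regions of E14 alone with no peak of any other library (dark green), regions of E14 alone with a peak in at least 1 library of another line (light green) and regions shared with P19 or 3T3 (grey). Members make up 2055 of 3123 regions at percentile 10 or less and 18 of 3825 above 90.

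The share of members among regions with an E14 region fell steadily with rank. Of regions whose lower E14 percentile was 10 or less, 65.8% (2055 of 3123) were members. The share was 32.4% between percentiles 40 and 50 and 0.471% (18 of 3825) above 90. Within the members, single P19 peaks went the opposite way. P19 replicate 2 had a peak in 30.6% of the members at percentile 10 or less and in 70.8% (60.6 to 79.2) between 80 and 90. P19 replicate 1 stayed between 7.10% and 11.3% over the same range. Members were also wider at higher rank, with medians of 581 bp at percentile 10 or less and 1067 bp between 80 and 90, which leaves more length for a peak to fall in. How far width enters the rise was not tested. The 18 members above percentile 90 stood apart, with P19 replicate 2 peaks in 5 and 3T3 replicate 2 peaks in 8, and their wide intervals rest on few regions (12.5 to 50.9% and 24.6 to 66.3%).

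**Figure D2:**
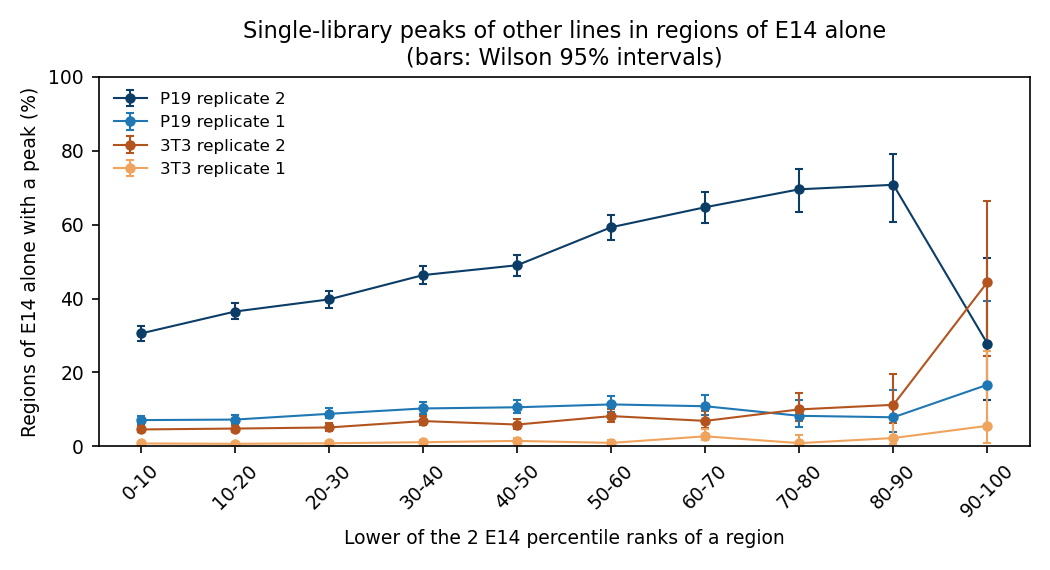
Share of regions of E14 alone with a peak of each P19 and 3T3 library, by the lower of their 2 E14 percentile ranks, with Wilson 95% intervals. P19 replicate 2 climbs from 30.6% to 70.8% over the first 9 groups, while P19 replicate 1 stays between 7.10% and 11.3%.

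Members were narrow. Their width ran from 286 to 5290 bp with a median of 676.5 bp. The median was 645 bp where no other library had a peak and 707 bp where one did, against 911 bp in regions of E14 and P19. At matched rank the members remained the narrower ones. Between percentiles 40 and 50 the median was 760 bp in members and 886 bp in the other regions with an E14 region. A wider region has more chance to meet a peak of another line. Shared regions were also measured after joining with regions of P19 or 3T3, which can only widen them. Width is thus bound up with the rule, at matched rank too. The widths of the E14 peaks by themselves were not compared. The widest member lay on an unplaced contig (Un_random, from 5262442 to 5267731), spanned 5290 bp with scores of 2318 and 1325 in E14 and 232.2 in P19 replicate 2. The next one lay at chr17:3028778-3032504, spanned 3727 bp, scored only 80.7 and 52.1 in E14 and had no other peak. The third lay at chr4:10980719-10983533, spanned 2815 bp and scored 806.5 and 447.9 in E14, with peaks of 54.4 in P19 replicate 2 and 53.3 in 3T3 replicate 2.

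A few strong E14 peaks had no counterpart in P19 or 3T3. The member with the highest rank in both E14 libraries among those without any other peak lay at chr2:10983428-10984359 and scored 1464 and 1241 (percentiles 97.8 and 97.2). The second lay at chr2:125591436-125593042 and scored 1316 and 897.5. The third, at chr12:114128433-114129252, scored 949.8 and 965.7. Both libraries thus placed these 3 regions above percentile 94. Further ones lay at chr9:76383559-76384131, with scores of 743.0 and 806.4, and at chr8:94087650-94089027, with scores of 1189 and 616.3. The remaining 3 of the 8 named by the rule lay at chr4:131844827-131845411 (714.5 and 574.1), chr5:104548225-104548856 (654.3 and 584.6) and chr11:29971181-29972047 (976.7 and 489.4). Regions are placed in the mm9 assembly and carry no gene names, since no mm9 annotation was used here.

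Of the 18 members above percentile 90 in both E14 libraries, the highest ranked lay at chr3:27639440-27640917 and chr18:15076388-15077341. Each scored 3100 in both E14 libraries. Their only other peaks were of 3T3 replicate 2, with scores of 73.8 and 51.1 (percentiles 21.8 and 1.39). The 18 also included a pair of neighbours on chromosome 17, singled out after their values were seen. The first ran from 35530349 to 35532453 and scored 1698 and 1564 in E14 and 59.7 in 3T3 replicate 2. The second ran from 35575440 to 35577601, and its E14 scores were 2250 and 1627. It also held a P19 replicate 1 peak of 54.3 and a 3T3 replicate 2 peak of 97.2. The peaks of other lines in this pair were at percentiles 11.3, 7.38 and 33.6 of their lists. A counterexample among the 18 lay at chr14:21171938-21172665, where E14 scored 981.9 and 1005 and P19 replicate 2 scored 506.2, at percentile 81.6 of its list, with no peak in P19 replicate 1.

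The threshold of the rule was an overlap of 1 bp. The members closest to it lay at chr1:34201135-34201924 and at chr7:88851154-88851835, each separated by 1 bp from a reproducible region of another line, and at chr5:37259347-37259828, separated by 4 bp. The E14 regions that just missed membership shared 1 bp with another line at chr15:95650489-95651343, 2 bp at chr7:19649623-19650109 and 4 bp at chr16:30549255-30550037. Few regions were this close. Within 100 bp of a reproducible region of another line lay 79 members, and 35 E14 regions shared 100 bp or less with one.

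To see whether absence from the other lines returns in libraries that did not enter the choice, E14 peaks absent from P19 and 3T3 were chosen with the lists of 1 replicate number and looked up in the lists of the other. With replicate 1, 26961 of the 61693 E14 peaks (43.7%) were so chosen. Of these, 40.2% had a peak in E14 replicate 2 (39.6 to 40.8), 30.9% in P19 replicate 2 (30.4 to 31.5) and 4.83% in 3T3 replicate 2 (4.58 to 5.09). For all E14 replicate 1 peaks the shares were 66.7%, 65.0% and 24.0%. The chosen peaks were therefore found less often in every library left out, E14 included. The drop in percentage points was larger in P19 than in E14. In 3T3 it was smaller than in E14 in this direction, but the share over all peaks there was only 24.0%, which bounds the drop.

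With replicate 2, 8508 of the 43443 E14 peaks (19.6%) were chosen. Of these, 64.3% had a peak in E14 replicate 1 (63.3 to 65.4), 11.4% in P19 replicate 1 (10.8 to 12.1) and 1.03% in 3T3 replicate 1 (0.840 to 1.27). For all E14 replicate 2 peaks the shares were 86.5%, 64.9% and 24.3%. The drop in percentage points was again largest in P19, but in 3T3 it was now slightly larger than in E14. In both directions E14 held more of the chosen peaks than P19, and P19 more than 3T3. The same order held over all E14 peaks. The libraries looked up differ in length, from 43443 peaks in E14 replicate 2 to 61693 in E14 replicate 1. The P19 lists held 40011 and 51196 peaks and the 3T3 lists only 15462 and 17540. The 2 directions allow no test. With every list as long as the shortest, the directions were closer. The chosen peaks were then found in E14 in 58.6% and 68.4% of cases and in P19 in 19.6% and 16.3%. Shares over all E14 peaks were not computed at that length, so no drop can be given.

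Chosen peaks that E14 gave again had these P19 shares. Of the 10834 chosen with replicate 1 and found in E14 replicate 2, 46.1% had a P19 replicate 2 peak (45.1 to 47.0), against 81.5% of all E14 replicate 1 peaks found again. Of the 5474 chosen with replicate 2 and found in E14 replicate 1, 14.4% had a P19 replicate 1 peak (13.5 to 15.4), against 71.5%. The 3T3 shares were 7.86% and 1.02%, against 32.8% and 25.6%. None of these held-out comparisons was matched for score rank, in which regions of E14 alone lay below regions shared with P19.

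**Figure D3:**
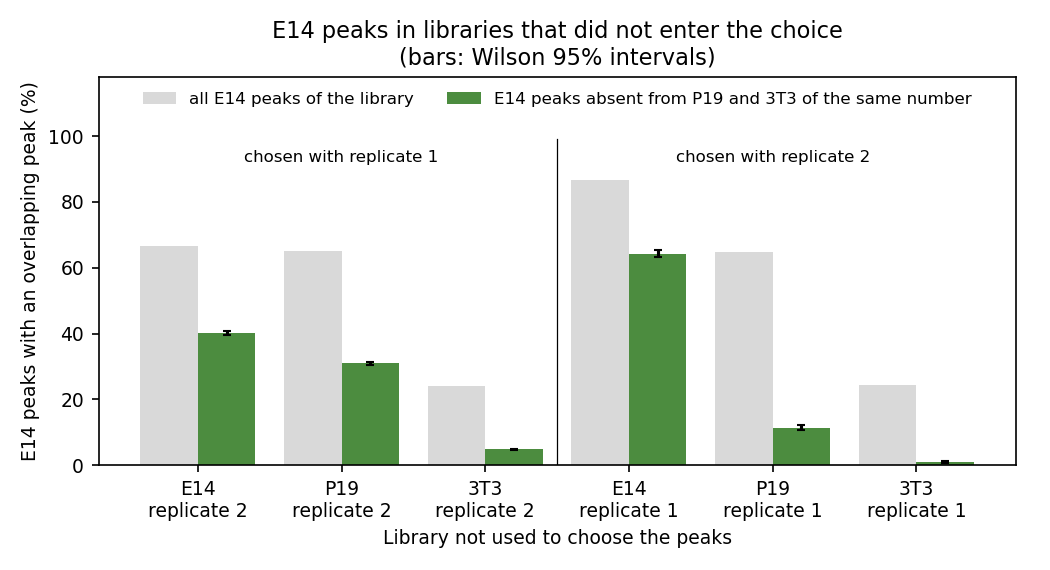
Share of E14 peaks that overlap a peak of each library not used in the choice, for all E14 peaks of a library (grey) and for those absent from P19 and 3T3 of the same replicate number (green, with Wilson 95% intervals). In both directions the green bar is tallest for E14 (40.2% and 64.3%) and shortest for 3T3 (4.83% and 1.03%).

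Regions of E14 alone were spread over all chromosomes, with shares that differed moderately. On the autosomes and the X chromosome they made up between 22.6% (chromosome 6, interval 20.7 to 24.6) and 31.7% (chromosome 19, 29.0 to 34.6) of the regions with an E14 region. Chromosome 14 was level with chromosome 19, at 31.7% (424 of 1339 regions, 29.2 to 34.2). At the low end the X chromosome had 23.2% (276 of 1190), chromosome 11 had 23.6% and chromosome 1 had 23.7%. The intervals of chromosomes 6, X, 11 and 1 overlapped one another, and so did those of 19, 14, 17 and 5, while the first 4 did not meet the last 4. The level of these shares moved with single libraries, to between 12.1% and 20.3% without P19 replicate 1 and to between 37.3% and 53.4% without E14 replicate 2. Intervals treat regions as independent and cover counting error only. With 2 libraries per line, the smallest exact two-sided p is 0.33.

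The chromosomes kept nearly the same order in separate libraries. Computed with replicate 1 lists only, the share of E14 peaks without a P19 or 3T3 peak was 36.8% on chromosome 6, 35.2% on X, 47.5% on chromosome 14 and 48.7% on chromosome 19. With replicate 2 lists only it was 16.5%, 13.8%, 23.2% and 22.9%. Over the 20 chromosomes the 2 sets of shares had a Pearson correlation of 0.90 and a Spearman correlation of 0.94. They share no library, but they share base composition, gene content and the karyotype of each line. Chromosome 14 stayed between the 17th and the 20th place under all 12 alternatives tried, among 20 chromosomes (18th of 19 with autosomes alone), and chromosome 6 was in the first or second place. The place of chromosome 19 fell to 3 and that of X rose to 15 when every list was limited to the length of the shortest.

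**Figure D4:**
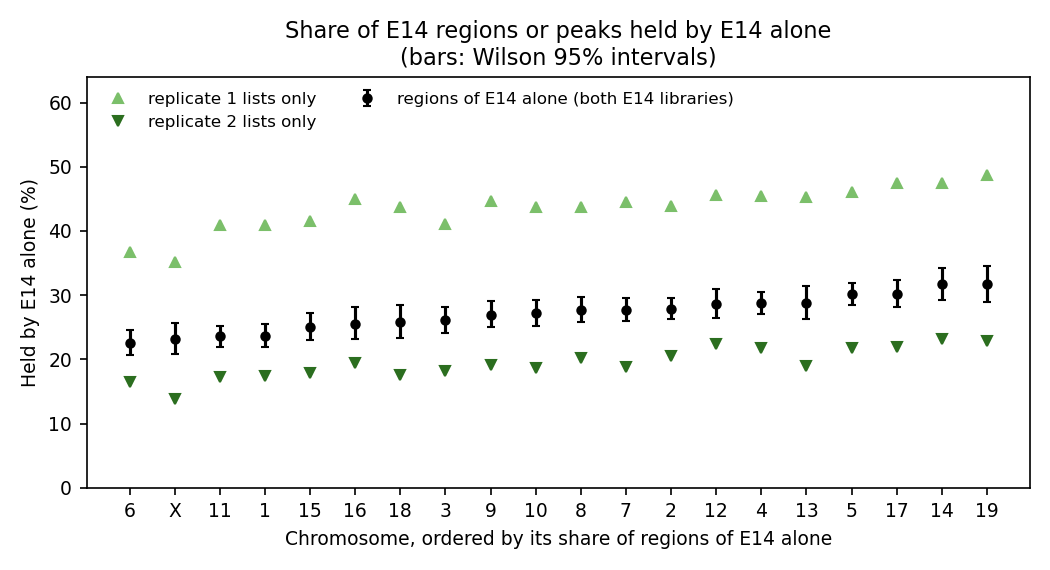
Share of E14 regions held by E14 alone on each autosome and the X chromosome (black, Wilson 95% intervals), with the share of E14 peaks that lack a P19 or 3T3 peak in replicate 1 lists (upward triangles) and in replicate 2 lists (downward triangles). All 3 measures run from low values on chromosomes 6 and X to high values on chromosomes 14 and 19.

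On the Y chromosome and its unplaced contigs, 82 of the 189 regions with an E14 region were members (43.4%, interval 36.5 to 50.5), and 60 had no peak in any other library. Most of them lay on the unplaced contigs, with 70 members among 157 regions (44.6%, 37.0 to 52.4). The placed chromosome had 12 of 32 (37.5%, 22.9 to 54.7), an interval that holds the 27.2% over all regions with an E14 region. Together the Y chromosome and its contigs took 0.423% and 0.467% of the E14 peaks, 0.300% and 0.281% of the P19 peaks, and 0.058% and 0.097% of the 3T3 peaks. The share without a P19 or 3T3 peak was 57.1% in replicate 1 lists and 36.0% in replicate 2 lists. The sources used here do not say how many cells of each line carried a Y chromosome, and its part in these values was not tested.

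Members lay closer to each other than other E14 regions lay to them. The median distance from a member to the nearest other member was 43.2 kb, and from a region of E14 and P19 to the nearest member 69.9 kb. For a region of all lines it was 51.7 kb. This distance moves with the number of members. It was 11.2 kb without E14 replicate 2, 27.3 kb without E14 replicate 1 and 74.3 kb without P19 replicate 1. Members also had nearer neighbours of any kind. Their median distance to the nearest other E14 region of any kind was 12.0 kb. It was 17.4 kb for regions of E14 and P19 and 16.1 kb for regions of all lines. The part of this density in the distances to members was not tested. Another E14 region lay within 5 kb of 32.2% of the members. This held for 27.8% of regions of E14 and P19 and 26.4% of regions of all lines. Joining over lines took 37337 E14 regions to 36889. It can fuse close E14 regions only in shared regions, which removes near neighbours there and not among members. Its part in the difference was not tested. A P19 reproducible region lay within 5 kb of 25.5% of the members, at a median distance of 16.1 kb. Members without any other peak were as close, at 16.0 kb.

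Being a member was shared with close neighbours. Where an E14 region followed a member at 5 kb or less, it was itself a member in 39.1% of 1965 cases (36.9 to 41.3). Following a region that was no member, it was one in 26.3% of 4516 cases (25.04 to 27.6). The 2 shares came together with distance, at 33.0% and 28.5% from 5 to 20 kb and at 27.8% and 26.3% from 20 to 100 kb. Score rank was not taken into account, and neighbours can share it.

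Runs of consecutive E14 regions that were all members were mostly short. Of 6878 runs, 4831 were single regions, 74 held 5 or more and 1 held more than 10. That run, of 13 regions, lay at chr4:153561093-153686736. Its scores ran from 63.2 to 630.0 with a median of 153.4 in E14 replicate 1, and from 50.5 to 262.6 with a median of 94.2 in E14 replicate 2. P19 replicate 1 had a peak in 1 of the 13 regions (53.4) and P19 replicate 2 in 3 (52.4, 68.5 and 86.6). Neither 3T3 library had a peak anywhere in the run. Over all members the shares with a peak were 8.90% and 43.2% for P19 replicates 1 and 2, and 1.04% and 5.89% for 3T3. The lack of 3T3 peaks in 13 members is thus close to what members show in general. Over the whole run the E14 libraries held 24 and 15 peaks and the P19 libraries 2 and 4. The strongest region of the run, from 153664814 to 153665780, scored 630.0 and 262.6 in E14 and 52.4 in P19 replicate 2, and the next, from 153654326 to 153655420, scored 408.6 and 192.9 with no other peak. Counting only members with no other peak, the longest run held 7 regions and 8 runs held 5 or more.

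Windows of 2 Mb showed where members were concentrated. Over the 1217 windows with at least 10 E14 regions, the share of members had a median of 25%, with quartiles of 16.7% and 33.3%. It exceeded 50% in 18 windows, 5 of them on chromosome 14, and was 0 in 19. Computed separately with replicate 1 and replicate 2 lists, the shares of 1240 windows had a Pearson correlation of 0.61 and a Spearman correlation of 0.59, given as a description since windows share composition and karyotype.

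The window with the highest share lay on the X chromosome from 144 to 146 Mb. There 14 of 18 regions with an E14 region were members (77.8%, interval 54.8 to 91.0), and 12 of them had no other peak. The E14 libraries held 22 and 18 peaks in it, the P19 libraries 5 and 6, and the 3T3 libraries 1 and 0. In the next window, from 146 to 148 Mb, E14 held 31 and 28 peaks and P19 23 and 25, and the share of members was 25%. Among the 6 windows plotted around it, both P19 counts were lowest in this one, while E14 counts stayed between 11 and 31 throughout. The window was chosen for its share of regions without P19 and 3T3, which favours low P19 counts. Its share ranged from 66.7% to 100% over the alternatives.

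The second window, on chromosome 4 from 152 to 154 Mb, held the longest run and many more regions. Of 78 regions with an E14 region, 57 were members (73.1%, 62.3 to 81.7). The E14 libraries held 147 and 91 peaks in it, the P19 libraries 31 and 46, and the 3T3 libraries 11 and 17. There were 0.211 P19 peaks per E14 peak in replicate 1 and 0.505 in replicate 2, against 0.649 and 1.18 over the whole lists. For 3T3 the ratios were 0.075 and 0.187, against 0.251 and 0.404. The window was chosen from the same lists for its high share of members, which favours low ratios of both other lines. The adjacent window from 150 to 152 Mb had 54.3% members (70 of 129), with 240 and 163 E14 peaks and 72 and 98 P19 peaks.

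Around these windows, a stretch of chromosome 4 from 148 to 156 Mb lay above the third quartile of all windows without a break. Its limits were set after the data were seen. It held 203 members among 421 regions (48.2%, 43.5 to 53.0), against 26.9% on the rest of the placed chromosomes. Its members had median E14 percentiles of 52.4 and 35.8, against 47.6 and 30.2 for members elsewhere. All regions with an E14 region in the stretch, however, had lower medians than elsewhere, at 63.6 and 50.7 against 69.1 and 57.1. In regions there that P19 did hold, the P19 peaks had median percentiles of 59.9 and 64.3, against 65.8 and 73.7 elsewhere, so ranks over these wider sets were lower there in both lines. The stretch took 1.27% and 1.17% of the E14 peaks, 0.782% and 0.838% of the P19 peaks, and 0.854% and 0.941% of the 3T3 peaks. The share of members in it exceeded the share over all regions under every alternative. The closest was 30.6% against 17.6%, with lists as long as the shortest. The alternatives reuse the peak lists from which the limits were set, so they are no independent check. Copy number of the stretch in each line was not analysed here, and its part in these counts was not tested.

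**Figure D5:**
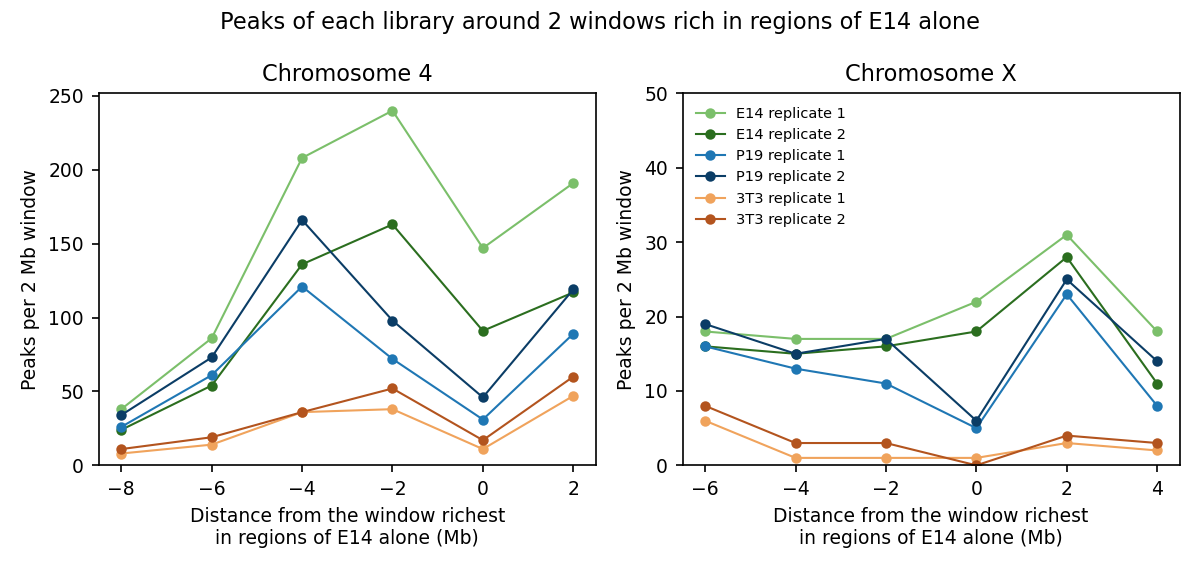
Peaks of each of the 6 libraries per 2 Mb window, against the distance from the window richest in regions of E14 alone on chromosome 4 (left) and on the X chromosome (right). At distance 0, P19 counts were 31 and 46 on chromosome 4 and 5 and 6 on X. The E14 counts there were 147 and 91, and 22 and 18. Both windows were chosen for their high share of members, which favours low P19 counts.

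The other windows named by the rule were smaller or less stable. On chromosome 14 from 104 to 106 Mb, 11 of 16 regions were members (68.8%, 44.4 to 85.8), with 26 and 17 E14 peaks and 5 and 9 P19 peaks. The 3T3 libraries held 5 and 8 peaks there, close to P19. The share was 33.3% with lists as long as the shortest, against 17.6% over all regions. On chromosome 3 from 152 to 154 Mb, 18 of 31 regions were members (58.1%). With the best-scoring 50% of each list the share was 12.5%, against 23.3% over all regions. Members made up 11 of 19 regions (57.9%) on chromosome 7 from 124 to 126 Mb. With lists as long as the shortest they made up 0%, against 17.6% over all regions. On chromosome 2 from 4 to 6 Mb the share was 57.1% (16 of 28). Without P19 replicate 1 it was 32.1%, still above the 15.4% over all regions. The share of this window did not exceed the share over all regions with peaks of either library (31.8% against 31.8%) or with lists as long as the shortest (16.7% against 17.6%).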

How the data were processed

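DPPA4 ChIP-seq in E14, P19 and 3T3 cells gave 6 peak lists, 2 per line. Input libraries were not analysed here. Per the submitters' processing notes, the tools were CASAVA 1.8, bcl2fastq 1.8, BWA 0.7.13-r1126 and SAMtools 1.3, with build mm9. Per the labels' protocols, libraries were made with a Nextera kit. The deposited lists give, per peak, a score of the authors' peak caller, whose name begins the peak names (MACS). The sources used here name neither its version nor its threshold or control. Peaks were called in each library separately.

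From these lists, regions, percentile ranks (ties averaged), overlaps, distances and Wilson 95% intervals were computed in Python 3.11.15 with SciPy 1.17.1, pandas 2.3.3 and NumPy 2.4.6, and drawn with Matplotlib 3.10.9. Tested on simulated data of 12000 sites, the code returned the number of regions placed in each of the 7 combinations of lines. The simulated sites lay far apart and their peaks overlapped broadly. Close neighbours, fused regions and overlaps of a few bp were therefore not tested. Coordinates are 1-based. Windows of 2 Mb follow a fixed grid, and distances, runs and windows leave out unplaced contigs.

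The members and the measures were chosen with earlier results of these data known. Regions were named by rule, namely the 8 members without another peak with the highest lower E14 percentile, the 3 widest, the 3 with the highest-ranked peak of another line, the 6 windows with the highest share, runs of 10 or more and the 3 regions on each side of the threshold. The gene and sequence tables at hand belong to GRCm38, so the planned description of sequence and genes was not run. Alternatives were another overlap, shorter lists, autosomes, peaks of either library, leave-one-out lists and a replicate block.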

Additional observations from a re-analysis of the deposited data

How the results depend on the processing

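The count of regions of E14 alone (10040) rests on list length and on both libraries per line. It was 4678 with the best-scoring 50% of each list, 2215 with lists of 15462 peaks, 19883 with peaks of either library, and from 5708 to 28070 when 1 library was left out. The share without any peak of another line (45.9%) was 48.6% and 57.7% with these shorter lists and from 48.6% to 94.2% without 1 library. Leaving out a P19 library raises it by construction, since the other P19 list then decides membership, and with peaks of either library it is not defined. The median distance between members (43.2 kb) was 129.8 kb and 311.8 kb with the shorter lists, 17.3 kb with either library and from 11.2 to 74.3 kb without 1 library. With a replicate block, using same-numbered libraries, a mean of 17734.5 E14 peaks was held by E14 alone, and 77.1% of them had no P19 or 3T3 peak in the other number. No label ties libraries of the same number to a common origin. Of the peaks chosen with replicate 2, 82.9% were found in E14 replicate 1 with the best-scoring 50%, and of those chosen with replicate 1, 58.6% in E14 replicate 2 with lists of 15462 peaks. The P19 shares of the chosen peaks (30.9% and 11.4%) became 19.6% and 16.3% with lists of 15462 peaks, so the directions came closer. Shares over all E14 peaks were not computed with the shorter lists. The order of chromosomes correlated with the main one by 0.32 with lists of 15462 peaks, by 0.62 with the best-scoring 50% and by 0.85 or more under the other 10 alternatives. Without the chromosome 4 stretch, an alternative added after the data were seen, 38.7% of regions within 5 kb after a member were members, against 39.1%. Read depth is unknown and limits every statement on absence.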
